A study of Oryctolagus cuniculus with 36 samples.

Results

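The 7 enzymes TDO2, AFMID, KMO, KYNU, HAAO, ACMSD and QPRT carry tryptophan along the kynurenine pathway. They were taken by gene symbol from a table of 23394 genes for rabbit liver, each symbol matched 1 row, and all 7 were among the 14939 genes that passed the filter on low counts. By its title the study used CRISPR/Cas9 to correct a gene in newborn rabbits that model hereditary tyrosinemia type I (HT1), a disease of lost FAH, the fumarylacetoacetate hydrolase that ends tyrosine catabolism. Titles place 36 RNA sequencing libraries in the groups FA, FK and WT, where WT is taken as wild type and the letters FA and FK are not spelled out. Genotype, treatment, time and age are not given by group, and every library, WT included, carries the same description of the tyrosinemia model. Each group has 3 numbered sets of 4 libraries, and since no label says that the 4 came from separate animals, they were summed to 1 replicate. With n = 3 replicates per group, which are not said to be separate animals either, a p-value reflects the spread among the 3 sums of a group, which may be technical.

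The kynurenine pathway is the main route of tryptophan breakdown, and in mammals the liver does most of this work. TDO2 opens the indole ring of tryptophan, AFMID removes the formyl group to give kynurenine, KMO hydroxylates kynurenine in the outer mitochondrial membrane, KYNU cleaves off alanine, and HAAO opens the ring once more. The product stands at a fork: ACMSD removes it towards glutarate and oxidation, and what escapes ACMSD turns into quinolinate, which QPRT commits to NAD. IDO1 and IDO2 catalyse the same step as TDO2 from other genes.

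Levels are given as CPM, counts per M counts after TMM scaling, and a replicate held 62.4 to 78.6 M counts in FA, 53.2 to 61.9 M in FK and 61.0 to 67.4 M in WT. FAH averaged 23.4 ± 3.27 CPM in FA, 14.3 ± 2.28 in FK and 242 ± 26.9 in WT (SD, n = 3). Of 11 hepatocyte markers found, which include albumin and transferrin, none was at 0 in any group, and their summed level was 210000 to 275200 CPM in FA, 147500 to 235300 in FK and 195800 to 261900 in WT. FK replicates 1 and 2 lay apart on the first principal component of all tested genes, at 109 and 121.7, with the other 7 replicates between -38.0 and -26.2. Blood-lineage transcripts moved with this split. The 15 erythroid markers found summed to 150 to 286 CPM in FA, to 954, 2488 and 187 in FK replicates 1, 2 and 3, and to 73.0 to 143 in WT. Most of the sums in FA and FK replicate 3 was TFRC alone, at 131, 242 and 109 CPM in FA replicates 1, 2 and 3 and 143 in FK replicate 3. The median log2 change of these markers from their WT means was -0.55, -0.49 and -0.30 in FA replicates 1, 2 and 3. In FK it was 4.59, 5.58 and -0.36. The 9 neutrophil markers summed to 18.9 to 41.2 CPM in FA, to 1198, 2062 and 27.8 in FK and to 16.6 to 27.8 in WT. The part of these cells in the results was not tested. Because FK replicate 3 was unlike the other FK replicates, results on FK are also given without it. In bulk RNA, fewer cells of a type and less RNA per cell cannot be told apart.

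KMO, AFMID and KYNU fell in FK, KMO to under 1% of its WT mean. In FA, KMO was also far below WT in every replicate, without passing the threshold. ACMSD was higher in every FA replicate than in every WT replicate, also without a call, while the entry enzyme TDO2 and the NAD-forming enzyme QPRT overlapped between all groups. In FK over WT, 3 of 7 enzymes were called lower and none higher, where a call is an adjusted p under 0.05 in the quasi-likelihood test of edgeR, adjusted by Benjamini and Hochberg's method over all genes. Of all genes tested in this comparison, 1.73% were called lower, 3.04% higher and 4.77% in either direction. The median fitted log2 change of the 7 was -1.44, against 0.05 for all genes tested. In FA over WT none of the 7 was called by edgeR, where 0.167% of all genes were called (0.0937% higher and 0.0736% lower). Of the 7, 3 had an unadjusted p under 0.05, as did 10.2% of all genes. DESeq2 called 1 of the 7 and limma-voom 3, where over all genes they called 335 and 440. In FA over FK edgeR called none of the 7, nor any gene (0%). There 4 members had an unadjusted p under 0.05, against 21.9% of all genes. DESeq2 called 1 member and limma-voom 3 in FA over FK, where over all genes they called 1778 and 2169. FK and FA share the WT replicates, so the comparisons with WT are not independent.

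**Figure D1:**
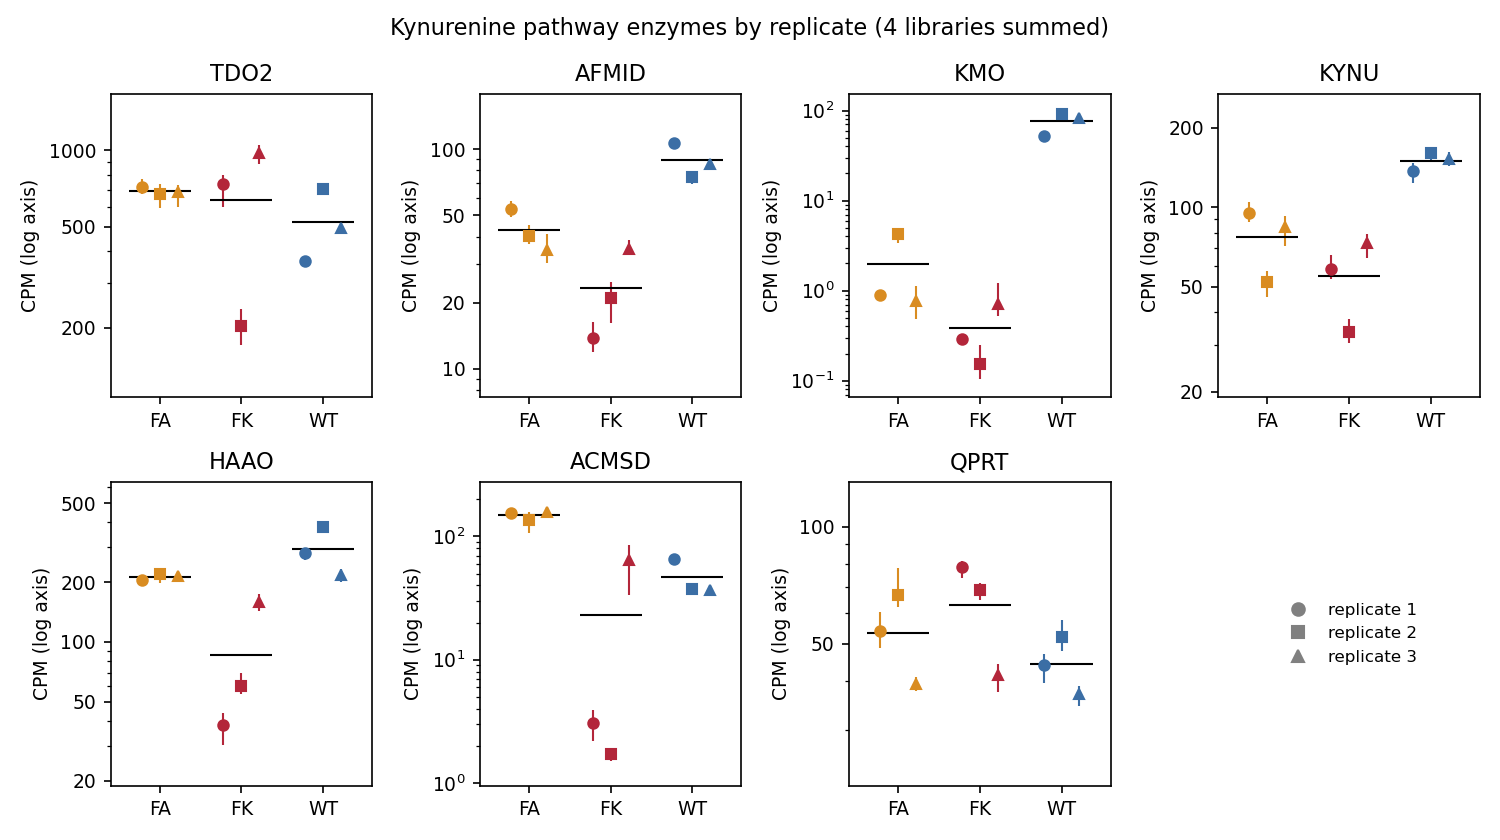
Level of each enzyme in CPM (log axis, scaled per panel) in the 3 FA, 3 FK and 3 WT replicates. Points are replicates of 4 summed libraries, vertical bars run from the lowest to the highest library, and horizontal lines are group means. KMO lies at 4.24 CPM or less in all FA and FK replicates and at 52.5 CPM or more in WT, while TDO2 and QPRT overlap between the groups.

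TDO2, the entry step, did not differ beyond its spread. It measured 715, 675 and 683 CPM in FA replicates 1, 2 and 3, 736, 204 and 972 in the FK replicates, and 367, 702 and 492 in the WT replicates. The FA replicates were close together, and FK held both the highest and the lowest value of the series. FK replicate 2, where TDO2 was lowest, also had the lowest summed level of hepatocyte markers. Most of that sum was albumin, at 85070 of 147500 CPM. The median log2 change of the 11 markers from their WT means was 0.156 in this replicate, within the range of the WT replicates (-0.119 to 0.162). The fitted log2 change was 0.29 in FK over WT (95% interval -0.87 to 1.46) and 0.41 in FA over WT (-0.76 to 1.57), with adjusted p of 0.753 and 0.848 in edgeR's test. These intervals leave room for a rise of more than 2-fold in FK or FA. Without FK replicate 3 the FK value turned to -0.18. The other 2 enzymes of this step were IDO1 and IDO2. IDO2 averaged 46.6 ± 9.53 CPM in FA, 21.7 ± 14.0 in FK and 57.5 ± 6.82 in WT, and was not called (FK over WT -1.41, adjusted p = 0.0699). Its FK replicates were all below WT, at 14.2, 13.1 and 37.8 CPM, and without FK replicate 3 its log2 change was -2.10 (adjusted p = 0.000217). IDO1, which interferon induces in immune and other cells, averaged 6.17 ± 0.865 CPM in FA, 3.45 ± 3.63 in FK and 5.90 ± 1.73 in WT and was not called (FK over WT -0.77, adjusted p = 0.464). It was at 1.22, 1.501 and 7.64 CPM in FK replicates 1, 2 and 3, so that replicate 3 lay within the WT range and the other FK replicates below it. The change of IDO1 was -2.14 without FK replicate 3 (adjusted p = 0.00105).

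AFMID, the formamidase that yields kynurenine, fell in FK. Its level was 53.2, 40.0 and 34.7 CPM in FA replicates 1, 2 and 3, 13.7, 20.96 and 35.2 in FK, and 107, 74.6 and 85.5 in WT. All 6 FA and FK values lay below the lowest WT value, while FA and FK overlapped. FK was at 26.2% of the WT mean, with a fitted log2 difference of -1.93 (SE 0.35, adjusted p = 0.0340 in edgeR's test), and FA was at 48.0%, with -1.06 (SE 0.34, adjusted p = 0.352). Leaving out FK replicate 3 kept the FK call, at -2.37 (adjusted p = 0.000453), and leaving out any other replicate raised the adjusted p to between 0.0572 and 0.138. Over all alternatives the call was lost in 12 of 19.

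KMO, which hydroxylates kynurenine and uses FAD and NADPH, changed most of the 7 in both comparisons with WT. It measured 0.898, 4.24 and 0.770 CPM in FA replicates 1, 2 and 3, 0.288, 0.152 and 0.710 in FK, and 52.5, 91.5 and 83.1 in WT. These CPM rest on 46 to 262 counts per FA replicate, 10 to 42 per FK replicate and 3289 to 5682 per WT replicate. Every FA and FK replicate was far below every WT replicate, FK replicate 3 included, and every FK replicate was below every FA replicate. FK averaged 0.506% of the WT mean and FA 2.603%. The summed hepatocyte markers overlapped between the groups, and the part of hepatocyte content in the KMO values was not tested. In FK over WT the log2 change was -7.63 (SE 0.92, adjusted p = 0.0112 in edgeR's test), the 9th lowest of all 14939 changes and the 24th smallest p. The call was lost on leaving out FK replicate 1 (-7.46, adjusted p = 0.0625) and held on leaving out each other replicate. In FA over WT the change was -5.26 (SE 0.82, adjusted p = 0.0598), so FA missed the threshold, as it did in 11 of 19 alternatives. Its adjusted p was 0.247 without FA replicate 1, 0.213 without FA replicate 3, 0.131 with a 2-fold minimum and 0.127 with the replicate block. It passed in the other 8, among which DESeq2 placed it below (5.69e-11), as did a fit of FA and WT alone (0.0137), the fit without FK replicate 3 (0.00927) and the fit without FA replicate 2 (-6.50, adjusted p = 0.0366). FA replicate 2 held the most KMO of the 6 low replicates, at 5.61% of the WT mean, and its 4 libraries ran from 3.38 to 4.85 CPM. FA exceeded FK by 2.37 log2 units (SE 0.76, adjusted p = 0.137), a difference that DESeq2 called (0.0153) and that was 1.14 without FA replicate 2 (adjusted p = 0.289).

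KYNU, a pyridoxal phosphate enzyme that also acts on kynurenine itself, fell in FK by less. Its replicates measured 95.4, 52.0 and 84.1 CPM in FA replicates 1, 2 and 3, 58.5, 33.7 and 73.1 in FK, and 137, 160 and 152 in WT. No FA or FK replicate reached the lowest WT value, and FA and FK overlapped. The log2 change was -1.44 in FK over WT (SE 0.33, adjusted p = 0.0471 in edgeR's test) and -0.96 in FA over WT (SE 0.32, adjusted p = 0.373), which put FK at 36.8% and FA at 51.5% of the WT mean. The FK call held without FK replicate 3 (-1.72, adjusted p = 0.00388) and was lost without any other replicate (adjusted p of 0.0589 to 0.161), and in 12 of 19 alternatives in all. KMO and KYNU are also made by macrophages. The 10 macrophage and Kupffer cell markers found summed to 322 to 429 CPM in FA, 533 to 786 in FK and 593 to 805 in WT, with CLEC4F at 0 in FA. The summed FK range thus overlapped with WT, while FA lay below both. Of 9 tested markers edgeR called 1 higher and none lower in FK over WT, against 3.04% and 1.73% of all genes. CD163 measured 0.309, 0.373 and 1.255 CPM in FA replicates 1, 2 and 3. It was at 31.0, 27.9 and 1.30 CPM in the FK replicates and 0.192, 0.322 and 0.130 in WT. The part of macrophages in the values of KMO and KYNU was not tested.

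HAAO, the iron dioxygenase that opens the ring of hydroxyanthranilate, was lower in every FK replicate than in every other replicate, without a call. Its level was 204, 220 and 214 CPM in FA replicates 1, 2 and 3, 38.3, 60.0 and 158 in FK, and 282, 377 and 217 in WT. FK replicates 1 and 2 were the lowest by far, and FA overlapped with the lowest WT replicate. FK over WT had a fitted log2 change of -1.77 (SE 0.49), with an adjusted p of 0.0657 in edgeR's test, and FA over FK 1.31 (SE 0.48, adjusted p = 0.169). FA over WT was -0.46 (95% interval -1.53 to 0.62, adjusted p = 0.807). Without FK replicate 3 both comparisons with FK passed, at -2.59 (adjusted p = 0.000451) over WT and 2.13 (adjusted p = 0.00109) for FA over FK. In that fit 34.9% of all genes were called in FK over WT and 34.5% in FA over FK. DESeq2 called the FK change with all 9 replicates (0.00423), and 15 of 19 alternatives left it uncalled.

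ACMSD, the decarboxylase at the fork, had the widest spread within a group. It measured 154, 135 and 158 CPM in FA replicates 1, 2 and 3, 3.07, 1.73 and 64.8 in FK, and 65.1, 37.8 and 36.7 in WT. All FA replicates lay above all FK and WT replicates, FK replicates 1 and 2 lay far below WT, and FK replicate 3 lay within the WT range. The 4 libraries of FK replicate 3 ran from 33.4 to 85.7 CPM, a coefficient of variation of 34.3%, against 5.63% to 22.2% in the other 8 replicates. FA averaged 3.20-fold the WT mean. The fitted log2 change in FA over WT was 1.68 (SE 1.11, adjusted p = 0.659 in edgeR's test), and FK over WT had -1.003 (SE 1.09, adjusted p = 0.594). The spread used for FA over WT was estimated over all 9 replicates, the unlike FK replicates included. A fit of FA and WT alone gave 1.68 with an adjusted p of 0.0236, and the fit without FK replicate 3 gave 1.68 with 0.0291, where 1.6% of all genes were called, while 14 of 18 alternatives left FA over WT uncalled. Without FK replicate 3, FK over WT was -4.30 (adjusted p = 0.000101) and FA over FK 5.98 (adjusted p = 3.86e-05). With all 9 replicates FA over FK was 2.68 (SE 1.15, adjusted p = 0.219).

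QPRT, the phosphoribosyltransferase that leads quinolinate to NAD, showed no difference beyond its spread. Its level was 53.9, 66.5 and 39.4 CPM in FA replicates 1, 2 and 3, 78.5, 68.6 and 41.5 in FK, and 44.1, 51.8 and 37.2 in WT. All groups overlapped, with FK replicates 1 and 2 above the highest WT replicate. The log2 change was 0.50 in FK over WT (95% interval -0.15 to 1.15, adjusted p = 0.293 in edgeR's test) and 0.26 in FA over WT (-0.38 to 0.91, adjusted p = 0.815). Neither interval reached a fall of 2-fold, while that of FK over WT leaves room for a rise of more than 2-fold.

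**Figure D2:**
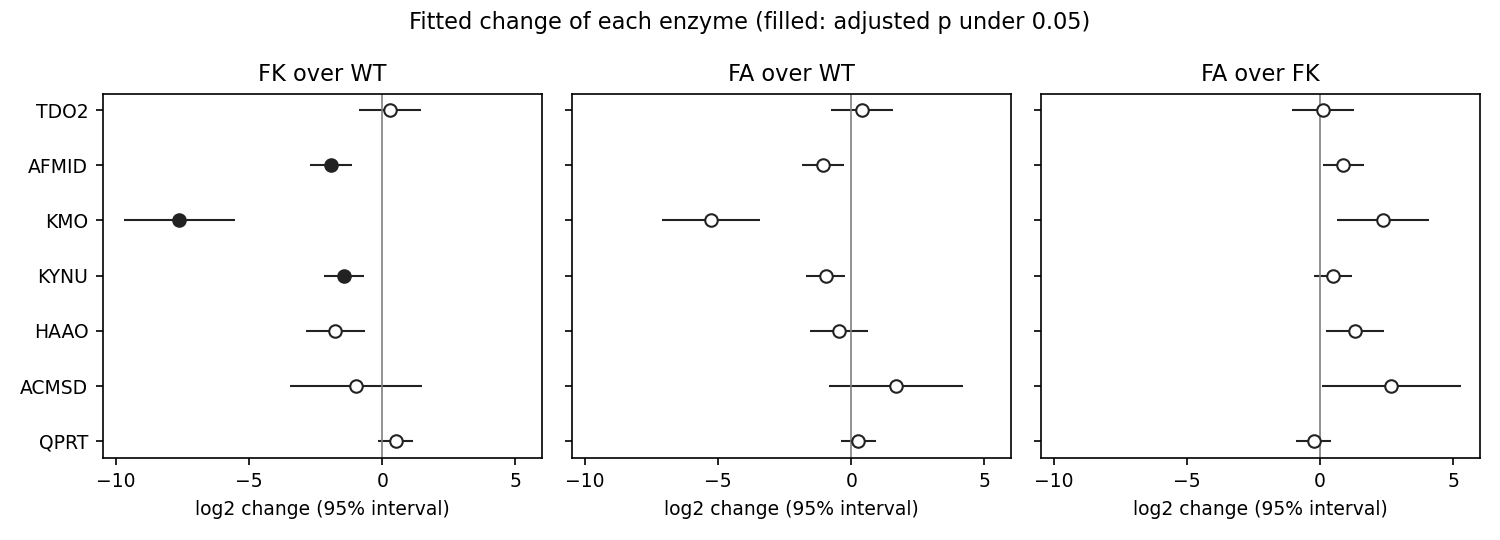
Fitted log2 change of each enzyme with its 95% interval in FK over WT, FA over WT and FA over FK, from 1 edgeR fit of 9 replicates. Filled points have an adjusted p under 0.05, which in FK over WT are AFMID (-1.93), KMO (-7.63) and KYNU (-1.44), and the widest intervals are those of ACMSD and KMO.

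By replicates alone, 4 enzymes (AFMID, KMO, KYNU and HAAO) were lower in all FK than in all WT replicates, where 13.4% of all genes were lower, 13.9% higher and 27.3% either without overlap. AFMID, KMO and KYNU were lower and ACMSD was higher in all FA than in all WT replicates, where 12.4% and 12.5% of all genes lay apart in those directions and 24.9% in either. KMO, HAAO and ACMSD were higher in all FA than in all FK replicates, against 8.24% of all genes, and no enzyme was lower in that way, against 8.99%. Without FK replicate 3, edgeR called 5 of the 7 lower in FK than in WT, all but TDO2 and QPRT, and none higher, against 16.2% of all genes lower and 18.7% higher. The same fit called 2 of 7 in FA over WT, KMO lower (0.686% of all genes) and ACMSD higher (0.912%), and 4 of 7 higher in FA over FK, where 16.4% of all genes were called higher.

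ACMSD and QPRT draw on the same intermediate, so their ratio within a library is a measure that no scaling between libraries can move. The log2 ratio of ACMSD to QPRT counts was 1.52, 1.02 and 2.00 in FA replicates 1, 2 and 3, -4.67, -5.31 and 0.64 in FK, and 0.56, -0.46 and -0.02 in WT. All FA replicates had a higher ratio than all FK and WT replicates. FK replicates 1 and 2 had by far the lowest ratios, while FK replicate 3 lay just above the WT range. The mean ratio was 1.51 ± 0.49 in FA, -3.11 ± 3.27 in FK and 0.03 ± 0.51 in WT (log2, SD, n = 3). FA exceeded WT by 1.48 and FK by 4.62, each with p = 0.1 in a two-sided exact permutation test, the smallest p that 3 against 3 allows. FK was 3.14 below WT (difference -3.14, exact permutation p = 0.4), and 5.02 below without FK replicate 3 (difference -5.02). The levels of ACMSD and QPRT themselves cannot be compared, since transcript lengths were not used here.

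**Figure D3:**
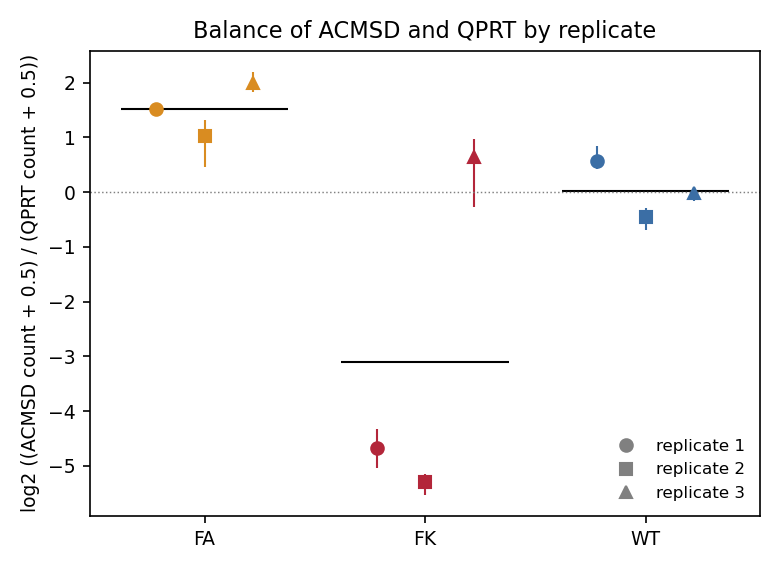
Log2 ratio of ACMSD to QPRT counts (0.5 added to each) in the 3 FA, 3 FK and 3 WT replicates. Points are replicates, vertical bars run from the lowest to the highest of their 4 libraries, horizontal lines are group means, and the dotted line is a ratio of 1. FA lies at 1.02 or more, and FK replicates 1 and 2 lie at -4.67 and -5.31.

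The genes nearest to each enzyme in pattern were sought among 8246 genes with a symbol and a mean of at least 5 CPM. Likeness was the root mean square difference of log2 (CPM + 0.5), centred per gene, over the 9 replicates, which share their libraries and depth, so the values are descriptions. Among the genes near KMO were ADCY8, an adenylyl cyclase (1.11), and FAH (1.16), against a median of 2.86 over the genes searched. ADCY8 averaged 0.67 CPM in FA, 0.13 in FK and 14.5 in WT. KMO was higher in FA replicate 2 than in the other FA replicates, whereas ADCY8 was lowest there, at 0.373 CPM, and FAH was 19.6 to 25.8 CPM over the FA replicates. Nearest to ACMSD were UGT2A1, a glucuronosyltransferase (0.47), TBX3, a T-box transcription factor (0.52), and PDILT, a protein disulfide isomerase relative (0.54), against a median of 2.14. TBX3 reached 10760, 4342 and 6276 CPM in FA replicates 1, 2 and 3, 190, 171 and 4295 in FK and 2506, 2976 and 3693 in WT, low in the same FK replicates as ACMSD. Whether all counts given to TBX3, 767119 in FA replicate 1, come from this gene was not tested. UGT2A1, whose close relatives may share its reads, averaged 254 CPM in FA, 82.0 in FK and 75.2 in WT. For the enzymes with smaller changes the nearest gene was HYI for AFMID (0.17), VAV3 for KYNU (0.13), NEIL2 for HAAO (0.17), C8H12orf4 for TDO2 (0.20) and SMCO4 for QPRT (0.15). Among the 7 enzymes, the pair most alike was AFMID and HAAO (0.47), followed by AFMID and KYNU (0.49), and the pair least alike was KMO and ACMSD (3.09).

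**Figure D4:**
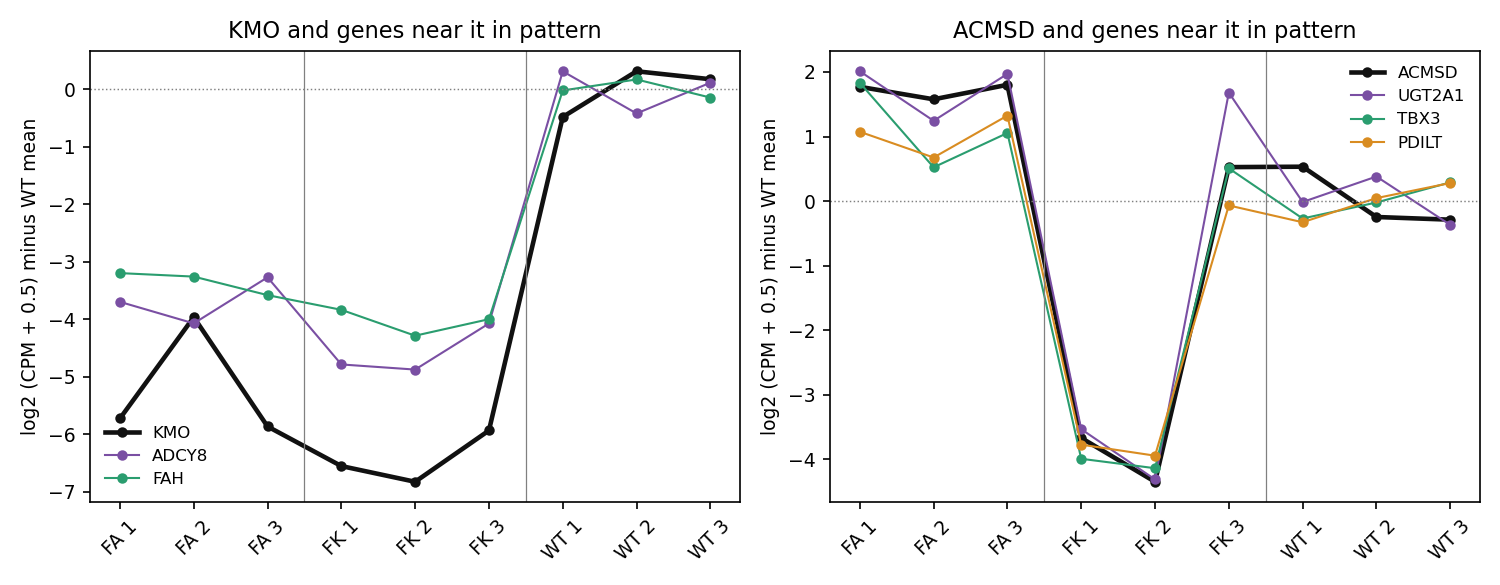
Log2 (CPM + 0.5) minus the WT mean in each of 9 replicates for KMO (left) and ACMSD (right), with genes near them in pattern, which are ADCY8 and FAH for KMO and UGT2A1, TBX3 and PDILT for ACMSD. KMO, ADCY8 and FAH lie below WT in all FA and FK replicates. ACMSD and its neighbours lie far below WT in FK replicates 1 and 2, above WT in FA and near or above WT in FK replicate 3.

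Neighbouring genes of tryptophan and NAD metabolism were followed in 8 lists of 64 genes, of which 57 were in the table and 53 were tested. Of the 53, edgeR called 4 higher and none lower in FK over WT, against 3.04% of all genes higher and 1.73% lower, with a median log2 change of -0.15. In the same comparison 18 had an unadjusted p under 0.05, against 26.9% of all genes. DESeq2 called 12 and limma-voom 17, where over all genes they called 2706 and 2448. The balance turned without FK replicate 3, with 8 called higher and 15 lower in FK over WT, against 18.7% and 16.2% of all genes. None was called by edgeR in FA over WT or FA over FK, against 0.167% and 0% of all genes. In these comparisons 5 and 16 had an unadjusted p under 0.05, against 10.2% and 21.9% of all genes. DESeq2 called 2 and 9, where it called 335 and 1778 of all genes. The limma-voom calls were 1 and 18, against 440 and 2169 of all genes. The 4 rises were those of 2 carriers of tryptophan and other amino acids, 1 tryptophan hydroxylase and 1 target of the aryl hydrocarbon receptor. Each was also called without FK replicate 3 and lost its call on leaving out any other replicate. Over all alternatives TPH2 and SLC36A4 each lost the call in 12 of 19, CYP1B1 in 13 of 19 and SLC7A5 in 14 of 18.

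Among 7 tested carriers and tryptophanyl-tRNA synthetases, 2 rose in FK over WT and none fell, against 3.04% and 1.73% of all genes, with a list median of 0.29. SLC7A5, the light chain of a large neutral amino acid transporter, measured 0.393, 0.599 and 0.402 CPM in FA replicates 1, 2 and 3, 17.2, 66.5 and 0.372 in FK, and 0.431, 0.499 and 0.535 in WT. It was thus high in FK replicates 1 and 2 alone, the replicates with erythroid and neutrophil markers, at a fitted change of 5.84 (SE 1.39, adjusted p = 0.04997 in edgeR's test, just under the threshold). The adjusted p was 0.0506 with RLE factors and 0.217 in limma-voom. SLC36A4, a carrier of tryptophan and proline, measured 1.63, 1.15 and 1.57 CPM in FA replicates 1, 2 and 3, 68.4, 70.1 and 2.26 in FK and 1.52, 1.76 and 2.46 in WT, with a change of 4.62 (SE 1.01, adjusted p = 0.0441 in edgeR's test). Its FK replicate 3 lay within the WT range. TPH2, a tryptophan hydroxylase best known from serotonin neurons, was the only 1 called by edgeR of 6 tested genes of the serotonin, melatonin and indole branch. In FK over WT 3.04% of all genes were called higher and 1.73% lower. TPH2 measured 1.26, 4.76 and 2.66 CPM in FA replicates 1, 2 and 3, 36.9, 20.3 and 4.51 in FK and 1.69, 1.10 and 1.83 in WT, so that all FK replicates were above WT (3.74, SE 0.77, adjusted p = 0.0408). The median log2 change of these 6 genes in FK over WT was -0.54. Of them 2 had an unadjusted p under 0.05, against 26.9% of all genes. DESeq2 called 1 of the 6 and limma-voom 3, against 2706 and 2448 of all genes. Kynurenine is a ligand of the aryl hydrocarbon receptor AHR. Of 5 tested genes of the AHR list, edgeR called 1 higher in FK over WT, against 3.04% of all genes. In this list 2 had an unadjusted p under 0.05, against 26.9% of all genes. DESeq2 and limma-voom each called 1, against 2706 and 2448 of all genes. The edgeR call was LOC100358590, named CYP1B1 in the RefSeq table. It averaged 11.8 ± 4.59 CPM in FK and 3.29 ± 0.190 in WT (1.85, SE 0.34, adjusted p = 0.0363). FA averaged 7.92 ± 2.29 CPM without an edgeR call. DESeq2 also called CYP1B1 in FK over WT (adjusted p = 6.96e-05). In limma-voom it was not called (adjusted p = 0.0657), so the limma-voom call was of another gene. In FA over WT edgeR called none of this list, with 2 at an unadjusted p under 0.05, against 10.2% of all genes. DESeq2 called 2 and limma-voom 1, against 335 and 440 of all genes. Without FK replicate 3, edgeR called 2 higher in FA over WT, against 0.912% of all genes. In the fit of all 9 replicates NQO1, a quinone reductase, was nearest to a call of this list in FA over WT. It measured 107.5, 126.5 and 97.0 CPM in FA replicates 1, 2 and 3, 42.2, 50.9 and 67.3 in FK, and 27.0, 42.3 and 26.3 in WT. All FA replicates lay above all FK and WT replicates, and FA over WT was 1.79 (SE 0.27, adjusted p = 0.0514 in edgeR's test). AHR itself averaged 89.1 CPM in FA, 68.0 in FK and 81.4 in WT. TIPARP, also listed as an AHR target, averaged 10.9 CPM in FA, 10.3 in FK and 9.55 in WT. Its FK over WT change was 0.12 (adjusted p = 0.740 in edgeR's test). AHRR was at 0 in every group, and CYP1A1 and CYP1A2 were not found in the table.

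The lists after the fork held no edgeR call in any comparison, against 4.77% of all genes in FK over WT. For every list of this paragraph, the background in FK over WT was 26.9% of all genes at an unadjusted p under 0.05. DESeq2 called 2706 of all genes there and limma-voom 2448. Of 11 tested genes of NAD synthesis and salvage, 4 had an unadjusted p under 0.05 in FK over WT. DESeq2 called 4 of them and limma-voom 6, with a median log2 change of -0.64. NAPRT, which starts NAD synthesis from nicotinic acid, had the smallest p, at 41.0 ± 10.6 CPM in FA, 18.2 ± 9.996 in FK and 54.3 ± 6.23 in WT (FK over WT -1.58, SE 0.38, adjusted p = 0.0502 in edgeR's test). Without FK replicate 3, 6 of the 11 were called lower and 1 higher, at a background of 34.9%. Of the 3 genes of the glutarate branch none was called (0 at an unadjusted p under 0.05, 0 by DESeq2 and 1 by limma-voom in FK over WT). ALDH8A1, the dehydrogenase that follows ACMSD, averaged 177 ± 45.9 CPM in FA, 81.3 ± 50.2 in FK and 149 ± 15.5 in WT, and it was lowest in FK replicates 1 and 2 (56.7 and 48.3 CPM). Of 10 NAD consumers none was called (3 at an unadjusted p under 0.05, 1 by DESeq2 and 2 by limma-voom in FK over WT), and the smallest p was that of the deacetylase SIRT2, at 32.9 ± 4.19 CPM in FK and 46.8 ± 0.588 in WT. Of the 5 genes that supply pyridoxal phosphate and FAD none was called. In FK over WT, 2 of these 5 had an unadjusted p under 0.05, DESeq2 called 1 and limma-voom 1. Of the 6 other enzymes of the entry and side branch steps edgeR called none in FK over WT, with a list median of -0.15. In that comparison 2 of them had an unadjusted p under 0.05, DESeq2 and limma-voom each called 2, and without FK replicate 3 edgeR called 1 higher and 2 lower. AADAT, an aminotransferase that turns kynurenine into kynurenic acid, measured 454, 110 and 402 CPM in FA replicates 1, 2 and 3, 1123, 332 and 164 in FK, and 127, 162 and 146 in WT. All FK replicates of AADAT lay above all WT replicates, FK replicate 3 by little, and FK over WT was 1.90 (SE 0.73, adjusted p = 0.1401).

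**Figure D5:**
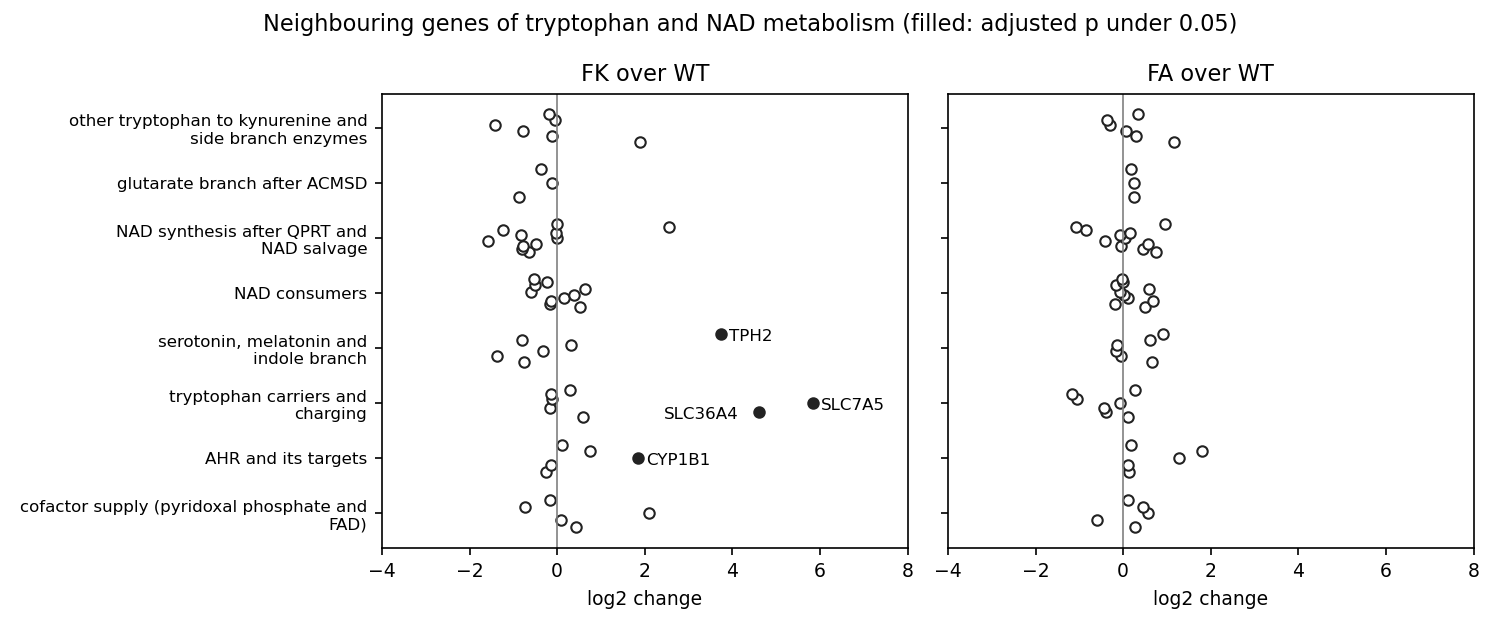
Fitted log2 change of 53 neighbouring genes in 8 lists, in FK over WT (left) and FA over WT (right). Each point is a gene, and filled points have an adjusted p under 0.05, which are TPH2, SLC7A5, SLC36A4 and CYP1B1 in FK over WT, all higher, and none in FA over WT.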

How the data were processed

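The deposited table holds estimated counts per gene, whole numbers as deposited by the authors. Salmon 0.14.1 is listed in the submitters' processing notes. What it was used for, which genome build served and whether strand was kept is not given in the sources used here, so genes that overlap or resemble each other are uncertain. Per the labels, livers were treated with trypsin, and TRIzol extraction was followed by TruSeq library preparation. Libraries held 11.7 to 22.5 M counts. The 4 libraries of a set were summed to 9 replicates.

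A single fit in edgeR 4.0.16 under R 4.3.3 covered all genes. It used filterByExpr, TMM scaling and the quasi-likelihood F test, with Benjamini-Hochberg adjustment over 14939 genes and a call at adjusted p under 0.05. Standard errors are the log2 change divided by the square root of F, with 95% intervals from the t distribution at the fit's degrees of freedom. The procedure was also run on simulated counts in which the replicates of a group shared their mean. No replicate was made unlike its group there, as FK replicate 3 was here, so that run cannot tell how the calls behave with such a replicate. CPM are given as mean ± SD. The named genes were the 7 members, FAH, IDO1, IDO2, every called gene of a pathway list, for a list without calls its gene of smallest p over the comparisons, and the nearest genes in pattern (3 where group means differed by over 2 log2 units, otherwise 1). Some genes that this rule names are not reported here. AHR, NQO1, TIPARP, AHRR and AADAT, and the markers albumin, TFRC and CD163, outside this rule, were named with their values known. The members and lists were chosen with earlier results of these data known. Names of LOC identifiers are from RefSeq, assembly mOryCun1.1.

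Alternatives were DESeq2 1.42.0, RLE factors, no filter, at least 1 CPM in 3 replicates, only the compared groups, a minimum change of 2-fold, a replicate block by set number, 36 libraries as separate replicates, limma-voom (limma 3.58.1) with the set as a random block, library 1 of each set, and each replicate left out. For the neighbouring genes these, and list counts without FK replicate 3, were chosen after seeing the data. Matplotlib 3.10.9 drew the figures.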

Additional observations from a re-analysis of the deposited data

How the results depend on the processing

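The count of members called moved with most settings, while every member change except 2 of TDO2 kept its direction in each setting that gave a value. In FK over WT, 3 members were called; a fit of only the compared groups, a 2-fold minimum, library 1 of each set and the set number as a replicate block each gave 1 (KMO), 36 libraries as separate replicates and limma-voom each gave 5, and leaving out 1 replicate gave 0 to 5. In FA over WT, where 0 were called, DESeq2, no filter and library 1 each gave 1, the compared groups alone 2, 36 separate libraries 4, limma-voom 3, and leaving out 1 replicate 0 to 2. In FA over FK, also at 0, DESeq2 gave 1, 36 separate libraries 5, limma-voom 3, and leaving out 1 replicate 0 to 4. The set numbers did not pair the replicates: deviations from group means correlated at -0.13 to 0.13 over 9 same-numbered pairs, above 0.1 in 2. The replicate block called 1 member in FK over WT and 0 in both other comparisons. Treating the 36 libraries as replicates takes the spread within sets for that between them. TDO2 changed direction, in FK over WT without FK replicate 3 (range -0.18 to 0.71 over replicates left out) and in FA over FK without FK replicate 2 (-0.30 to 0.58). IDO1 in FA over WT also turned, in limma-voom (-0.016) and over replicates left out (-0.075 to 0.33). The cause was not tested. Over all genes, the counts called ran from 22 (without FK replicate 1) to 7372 (36 separate libraries) against 712 in FK over WT, from 2 to 4330 against 25 in FA over WT, and from 0 to 6984 against 0 in FA over FK. DESeq2 called 2706, 335 and 1778, limma-voom 2448, 440 and 2169, and the replicate block 47, 3 and 0. DESeq2 gave no adjusted p for ACMSD. The differences in the ACMSD to QPRT ratio kept their sign in all 8 alternatives of each comparison. Depth limits KMO in FK, where a replicate held as few as 10 counts.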
